A study of Mus musculus with 8 samples.

Results

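Expression of 10 genes of fatty acid synthesis and desaturation (Acly, Acaca, Fasn, Me1, Scd1, Scd2, Elovl5, Elovl6, Srebf1 and Thrsp) was examined in SOL, the soleus muscle, of MI4KO and flox mice. The genes were taken by name as the enzymes and regulators of the pathway, and all 10 were found among the 24054 genes of the table. In this pathway, citrate exported from mitochondria is split to acetyl-CoA in the cytosol, acetyl-CoA carboxylase turns it into malonyl-CoA, and fatty acid synthase joins these units into palmitate with reducing power from NADPH. Elongases then lengthen the chain, and stearoyl-CoA desaturases place a double bond that makes oleate-type fatty acids for membranes and triglycerides. Liver and fat are the main sites of the pathway, while in muscle fibers malonyl-CoA is known above all as the inhibitor of fatty acid entry into mitochondria.

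MI4KO mice carry floxed Irf4 alleles and a Cre under Myl1, a gene of skeletal muscle fibers, and flox mice are their controls with the floxed alleles and no Cre. All 8 mice were C57BL/6 males on a high fat diet according to the labels, which give no age. The study's methods leave the diet of the animals used for sequencing unnamed. Its body weight and glucose tests of MI4KO and flox mice were on chow, and it calls work on a high fat diet ongoing. The labels thus differ from the diet of the paper's phenotypes, and which diet the sequenced mice had cannot be settled here. RNA came from whole SOL, in which cells other than fibers keep Irf4, with 1 library for each of 4 MI4KO and 4 flox mice, numbered 1 to 4 within a group in ascending order of their label numbers. The study asked how loss of IRF4 in muscle changes glycogen and exercise capacity, and SREBP1, the product of Srebf1, was among the regulators it considered. Values are TMM-normalized CPM, in which each library's scale is set by a trimmed mean of gene ratios, and are written below as CPM.

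Libraries held 13417512 to 16384565 reads, and the detection floor of 3 reads on a gene equals 0.181 to 0.225 CPM. Irf4 itself was low, at 1.35 ± 0.451 CPM (SD, n = 4) in flox and 0.715 ± 0.324 (SD, n = 4) in MI4KO mice, with values that overlapped. Its log2 fold change, MI4KO minus flox, was -0.45 (unadjusted p = 0.0402 by limma, exact two-sided permutation p = 0.114). Slow and fast fiber genes were abundant in every library, with summed values of 32200 to 42350 CPM for 7 slow fiber genes and 46020 to 61680 CPM for 8 fast fiber genes. Libraries that stood apart were flox mouse 1, in which summed hepatocyte genes reached 175 CPM against 1.46 to 3.26 CPM in the other mice, and MI4KO mouse 3, in which summed glucocorticoid-responsive genes reached 1160 CPM against 394 to 557 CPM. MI4KO mouse 3 was also highest for summed fasting-responsive genes, at 3710 CPM against 2225 to 2584 CPM in the other mice.

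RefSeq promoters of GRCm38.p6 were given for 8 of the 10 genes, with 11 start sites in all. None was given for Scd1 or Scd2, so their promoters were not searched. In the 250 bases before each start, on both strands, CCAAT was present at 6 of the 11 starts, belonging to 5 genes (Fasn, Srebf1, Elovl5, Me1 and Thrsp), and at 33.8% of all 32851 promoters. The only Acaca start given, at 84195438, lies inside the gene, which begins at 84129672, so the bases before the gene were not searched. The Thrsp start given, at 97417550, also lies inside the gene as annotated by GENCODE M21, which begins at 97417730 on the minus strand. The Me1 match belongs to its inner start at 86687277, and the start at 86695914 had none. CACGTG, an E-box, was present at 1 start, that of Elovl5, and at 6.02% of all promoters. TCACNCCAC, a sterol regulatory element-like motif, was present at none of the 11 and at 1.05% of all promoters. A match is a description of letters and does not show binding. Promoters of 3 genes are shown because these stand for the synthase, its regulator SREBP1 and the lipogenic factor Thrsp. Each is 150 bases that end at the base before the start, on the minus strand, with CCAAT or its reverse complement in capitals: Fasn at chr11:120824548-120824697, the inner of the Srebf1 starts at chr11:60210472-60210621, and Thrsp at chr7:97417551-97417700.
Fasn: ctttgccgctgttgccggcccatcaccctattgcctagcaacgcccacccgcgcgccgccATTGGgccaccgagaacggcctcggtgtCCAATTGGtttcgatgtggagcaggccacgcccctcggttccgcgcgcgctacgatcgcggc
Srebf1: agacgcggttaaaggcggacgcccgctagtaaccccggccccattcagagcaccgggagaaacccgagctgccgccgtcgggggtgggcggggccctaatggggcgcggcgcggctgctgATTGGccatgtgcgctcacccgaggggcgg
Thrsp: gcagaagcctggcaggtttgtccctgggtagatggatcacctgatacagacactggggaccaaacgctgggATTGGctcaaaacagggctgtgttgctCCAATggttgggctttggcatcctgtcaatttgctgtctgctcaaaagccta
Matches in the Fasn promoter began 90, 62 and 59 bases before the start, and the last pair of them overlap by sharing letters of opposite strands. The match of the inner Srebf1 start began at 30 bases, and those of Thrsp at 79 and 52 bases.

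In the GENCODE M21 annotation of GRCm38, Scd1 lies on chromosome 19 from 44394455 to 44407879 on the minus strand, and Scd2 lies on the same chromosome from 44293674 to 44306864 on the plus strand. Fasn and Srebf1 lie on the minus strand of chromosome 11, from 120805846 to 120824547 and from 60199089 to 60222581. Values are sums over whole genes, so transcripts from different starts of Srebf1 cannot be told apart.

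Levels of the genes relative to each other were compared per kilobase of the longest coding transcript. Me1, which encodes malic enzyme, a source of cytosolic NADPH, had the highest level of the 10 genes in flox mice, at 47.1 ± 2.50 CPM per kilobase (SD, n = 4). Scd1, the desaturase gene of fat and liver, followed at 35.6 ± 1.41 CPM per kilobase, and the flox ranges of Me1 and Scd1 did not overlap. Then came Thrsp at 7.78 ± 1.31, Srebf1 at 6.51 ± 0.466, Elovl5 at 4.68 ± 0.455, Acly at 4.30 ± 0.809, Scd2 at 3.43 ± 0.183 and Acaca at 2.99 ± 0.223 CPM per kilobase. Of the neighbors in this order, Thrsp and Srebf1, Elovl5 and Acly, and Acly and Scd2 had overlapping flox ranges. Fasn, at 1.17 ± 0.127 CPM per kilobase, lay below all of these, and Elovl6, at 0.124 ± 0.0424, was lowest. With the summed exon length in place of the longest transcript, Thrsp stood at 4.54 and Srebf1 at 4.97 CPM per kilobase, so these genes changed places. Acacb, the acetyl-CoA carboxylase gene tied to mitochondria, was at 81.6 ± 10.8 CPM per kilobase in flox mice, above every one of the 10 genes and with a range that did not overlap that of Acaca, the cytosolic form at 2.99.

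**Figure D1:**
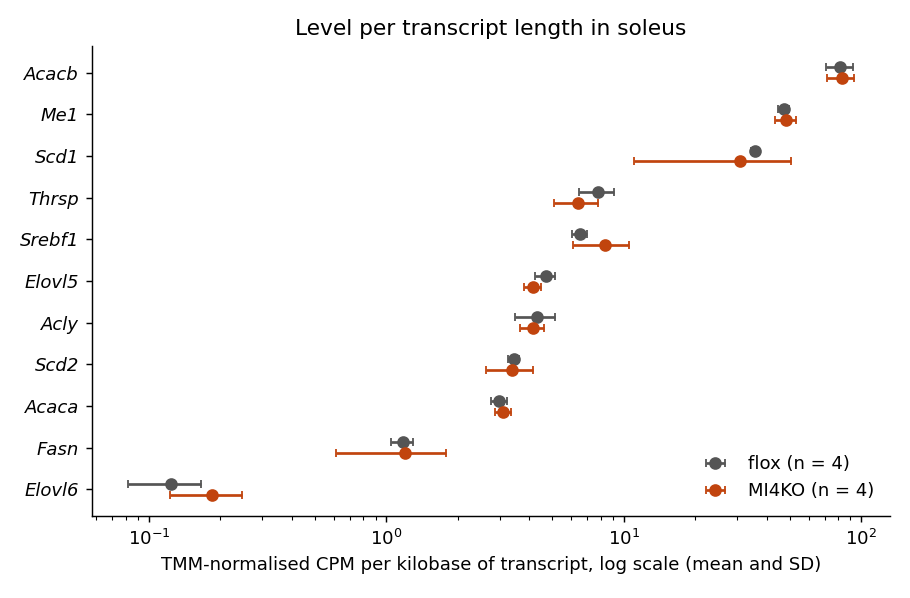
Level of each gene and of Acacb in SOL, in TMM-normalized CPM per kilobase of the longest coding transcript on a log axis, with points for the mean and bars for the SD of 4 flox and 4 MI4KO mice. Acacb, Me1 and Scd1 lie to the right, Elovl6 lies at 0.124 in flox mice, and the widest MI4KO bars are those of Scd1 and Fasn.

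limma, run on log2(value + 1), compared the groups over 11865 genes that reached 1 CPM in 4 or more mice, a scale that understates the change of low genes. All 10 genes passed this filter, although Elovl6 did so through 1 flox and 3 MI4KO mice, exactly the number required. In this limma test none of the 10 passed the study's limits of an unadjusted p under 0.05 and a 1.5-fold change, which 0.219% of all genes tested passed. The study set these limits with edgeR, so this share is not that of its own gene list. By edgeR on the recovered reads, 65 of the 11865 genes passed them. None of the 10 had an adjusted p under 0.05 in limma, as was the case for 0% of all genes tested. One gene, Srebf1, had an unadjusted p under 0.05, against 3.36% of all genes tested, of which 350 were lower and 49 higher in MI4KO mice. The values of MI4KO and flox mice overlapped for all 10 genes, and 2.07% of all genes tested had values that did not overlap (202 lower and 44 higher in MI4KO mice). The log2 fold change, MI4KO minus flox, was positive for 4 genes and negative for 6, with a median of -0.044 beside -0.015 over all genes tested. Since whole muscle was sequenced, fewer cells of a type and less RNA per cell cannot be told apart in any of these values.

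**Figure D2:**
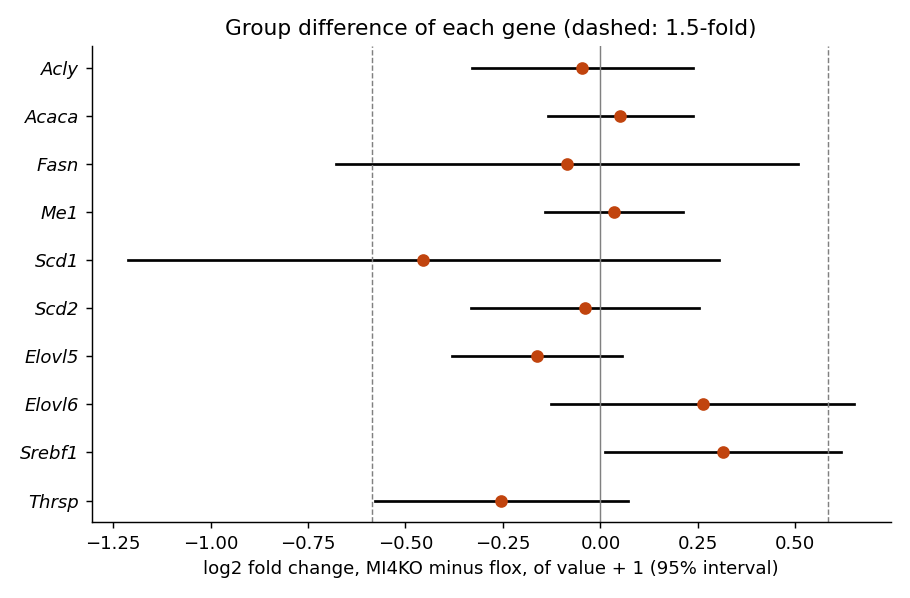
Log2 fold change of value + 1, MI4KO minus flox, for each of the 10 genes, with points for the limma estimate and lines for its 95% interval over 4 and 4 mice. The interval of Srebf1, 0.01 to 0.62, lies above 0, every other interval spans 0, and the widest is that of Scd1, from -1.21 to 0.31.

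The genes that supply carbon and build the chain showed no group difference past the test, and their MI4KO values lay around those of flox mice. Acly, ATP citrate lyase, was at 17.8, 20.4, 14.8 and 23.2 CPM in flox mice 1 to 4 and at 15.4, 20.6, 18.2 and 19.0 CPM in MI4KO mice 1 to 4. All MI4KO values of Acly lay inside the flox range, and the log2 fold change was -0.05 (95% interval -0.33 to 0.24, p = 0.728 by limma, exact permutation p = 0.8286). Acaca, which encodes the carboxylase that makes malonyl-CoA for synthesis, was at 29.6, 25.4, 28.5 and 30.2 CPM in flox mice and at 27.6, 28.8, 32.8 and 28.6 CPM in MI4KO mice. Only MI4KO mouse 3 lay above the flox range of Acaca, and the log2 fold change was 0.05 (95% interval -0.14 to 0.24, p = 0.564 by limma, exact permutation p = 0.514). Of the 50-base windows of the Acaca transcript, 52.6% also occur in the predicted gene Gm5182, so the Acaca values are uncertain where the counting could have split reads between copies. Acacb, whose product acts mainly on fat oxidation, was at 717 ± 94.99 CPM (SD, n = 4) in flox and 726 ± 94.4 (SD, n = 4) in MI4KO mice, with a difference of 0.02 on the log2 scale (95% interval -0.23 to 0.26).

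Fasn, fatty acid synthase, was at 11.04, 11.03, 11.18 and 13.63 CPM in flox mice 1 to 4. In MI4KO mice 1 to 4 Fasn was at 4.93, 12.5, 11.5 and 19.3 CPM. MI4KO mouse 1 lay below and MI4KO mouse 4 above every flox mouse, and the other two lay inside the flox range. Behind the Fasn values stand 68 to 319 reads, and the log2 fold change was -0.09 (95% interval -0.68 to 0.51, p = 0.761 by limma and 0.857 by the exact permutation test). This sign was not stable, with 0.25 without MI4KO mouse 1 and -0.34 without MI4KO mouse 4. Among mice with lower label numbers (1 flox, 2 MI4KO) the Fasn difference was -0.43 on the log2 scale, and among those with higher numbers (3 flox, 2 MI4KO) it was 0.30.

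Me1 was at 163, 156, 157 and 144 CPM in flox mice and at 177, 148.7, 169 and 143 CPM in MI4KO mice. MI4KO mice 1 and 3 were highest of all 8 and MI4KO mouse 4 was lowest, with a log2 fold change of 0.04 (95% interval -0.14 to 0.21, p = 0.678 by limma, exact permutation p = 0.714). Here too the values are uncertain where reads could be split, since 26.5% of the 50-base windows of the Me1 transcript also occur in the predicted genes Gm7049 and Gm7329.

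Of the 10 genes, the largest coefficient of variation between MI4KO mice was that of Scd1, the desaturase gene that is most abundant in fat. Scd1 was at 167, 179, 165 and 177 CPM in flox mice 1 to 4, a coefficient of variation of 3.97%. In MI4KO mice 1 to 4 Scd1 was at 59.2, 184, 84.2 and 268 CPM, a coefficient of variation of 64.4%. None of the MI4KO mice lay inside the flox range: mice 1 and 3 were below it and mice 2 and 4 above it. Between the lowest and the highest MI4KO mouse the ratio was 4.52, against 1.08 between flox mice, and 816 to 4426 reads stand behind these values. Because the MI4KO values lay on both sides, the mean log2 fold change of -0.45 had a 95% interval from -1.21 to 0.31 (p = 0.218 by limma, exact permutation p = 0.429), a range from 0.432-fold to 1.24-fold. limma draws the variance of a gene toward a trend over all genes, so this interval is narrower than the spread of Scd1 alone gives. With robust estimation in limma p was 0.389. On the recovered reads the log2 fold change of Scd1 was -0.18 by both edgeR and DESeq2. It was -0.10 without MI4KO mouse 1, -0.26 without MI4KO mouse 3 and -0.82 without MI4KO mouse 4, and past the study's limits in the last case (p = 0.0123 by limma, exact permutation p = 0.286, where 0.0571 is the smallest possible with 4 mice against 3). In flox mouse 1, the library with hepatocyte genes, Scd1 lay between the values of the other flox mice.

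Scd2, the related desaturase gene known for its expression in brain and nerve, showed the same order of MI4KO mice 2 and 4 above mice 1 and 3. It was at 19.3, 19.7, 18.2 and 17.6 CPM in flox mice and at 15.7, 21.1, 14.1 and 22.9 CPM in MI4KO mice. Again 2 MI4KO mice lay below and 2 above the flox range, with a log2 fold change of -0.04 (95% interval -0.33 to 0.25, p = 0.769 by limma, exact permutation p = 0.8286). Shared 50-base windows with other genes, chiefly of the Scd family, make up 4.66% of the Scd1 and 4.01% of the Scd2 transcript. Scd3 was at 1.55 ± 0.422 CPM (SD, n = 4) in flox and 1.92 ± 0.112 (SD, n = 4) in MI4KO mice.

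Of the elongases, Elovl5, which acts on polyunsaturated chains, was at 12.2, 14.4, 13.8 and 11.7 CPM in flox mice and at 10.4, 11.8, 12.7 and 11.1 CPM in MI4KO mice. MI4KO mice 1 and 4 lay below the flox range of Elovl5, and the log2 fold change was -0.16 (95% interval -0.38 to 0.06, p = 0.129 by limma, exact permutation p = 0.143). Elovl6, which lengthens palmitate to stearate, was near the limit of the data with 6 to 24 reads per mouse. It was at 0.811, 1.04, 0.675 and 0.437 CPM in flox mice and at 0.580, 1.099, 1.26 and 1.45 CPM in MI4KO mice. MI4KO mice 2, 3 and 4 lay above and mouse 1 inside the flox range of Elovl6, and the log2 fold change was 0.26 (95% interval -0.13 to 0.65, p = 0.169 by limma, exact permutation p = 0.200). On the recovered reads, without the added 1, the Elovl6 log2 fold change was 0.58 by both edgeR and DESeq2.

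Srebf1 encodes SREBP1, the transcription factor that drives the synthesis genes after feeding. It was at 29.9, 28.2, 25.2 and 28.7 CPM in flox mice 1 to 4 and at 33.7, 29.0, 49.6 and 30.9 CPM in MI4KO mice 1 to 4. MI4KO mouse 3 stood above all others, MI4KO mice 1 and 4 lay slightly above the flox range, and MI4KO mouse 2 lay inside it. The means were 28.0 ± 2.002 CPM (SD, n = 4) in flox and 35.8 ± 9.40 CPM (SD, n = 4) in MI4KO mice, with a log2 fold change of 0.31 (standard error 0.14, 95% interval 0.01 to 0.62, limma p = 0.0434 before and 1.0 after Benjamini-Hochberg adjustment, exact two-sided permutation p = 0.0571). The smallest p that this permutation test can give with 4 mice against 4 is 0.0286. Without MI4KO mouse 3, in which glucocorticoid-responsive and fasting-responsive genes were highest, the log2 fold change of Srebf1 was 0.15 (p = 0.107 by limma, exact permutation p = 0.114). It was 0.06 among mice with lower label numbers and 0.51 among those with higher numbers, the range that holds MI4KO mouse 3. Ppp1r3c, the gene of the glycogen-targeting subunit PTG, was likewise highest in MI4KO mouse 3, at 1128 CPM against 222 to 293 CPM in the other mice, and was named after its values were seen. The part of the glucocorticoid- and fasting-responsive genes in the Srebf1 difference was not tested.

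Thrsp, a nuclear factor of lipogenic tissue that responds to thyroid hormone, was at 10.2, 7.49, 11.1 and 10.9 CPM in flox mice and at 6.75, 8.60, 10.4 and 7.01 CPM in MI4KO mice. MI4KO mice 1 and 4 lay below the flox range, and the log2 fold change of Thrsp was -0.25 (95% interval -0.58 to 0.07, p = 0.115 by limma, exact permutation p = 0.200). Without MI4KO mouse 3 it was -0.36 (p = 0.0201 by limma, exact permutation p = 0.114).

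**Figure D3:**
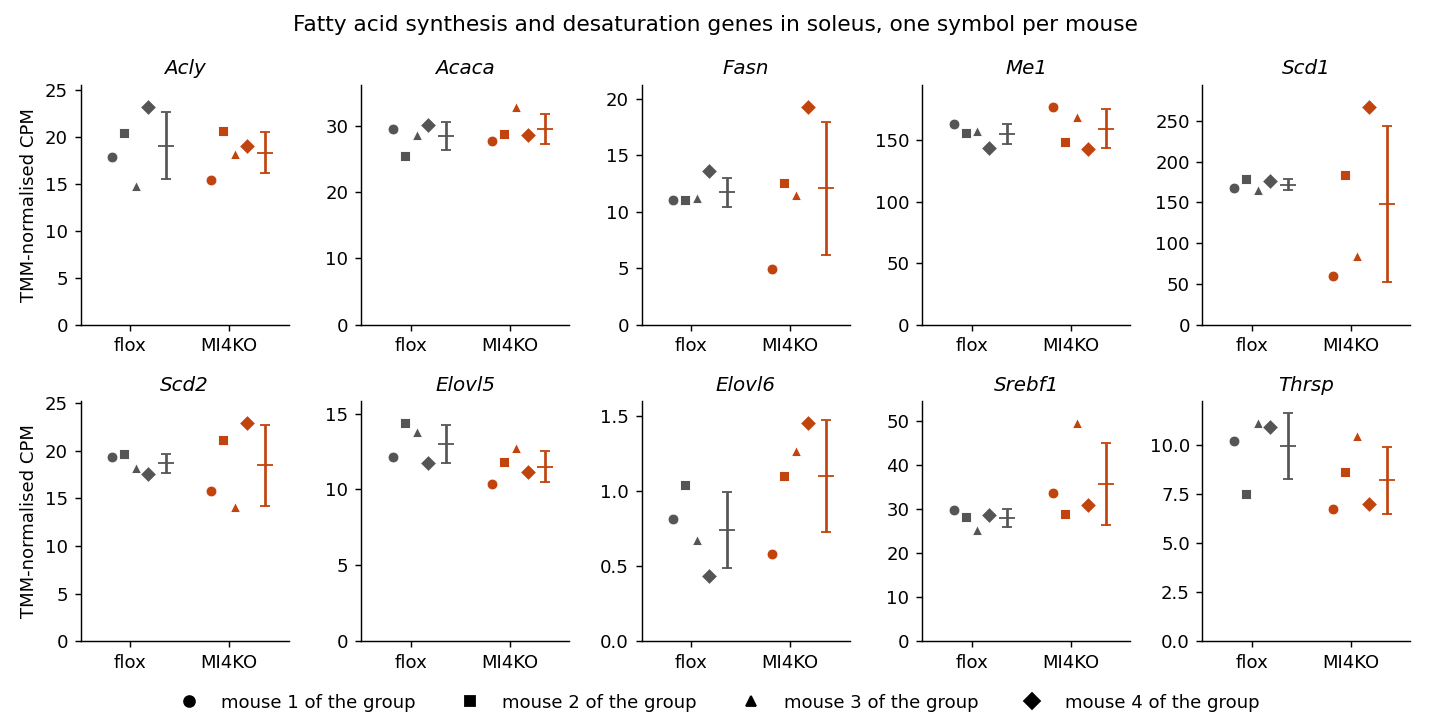
Values of the 10 genes in SOL in TMM-normalized CPM, each panel with its own axis from 0, with 1 symbol per mouse and the mean and SD (n = 4) beside each group. MI4KO values of Scd1 run from 59.2 to 268 around a narrow flox group of 165 to 179, and Srebf1 reaches 49.6 in MI4KO mouse 3.

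Spread between mice on the log2 scale was larger in MI4KO than in flox mice for 7 of the 10 genes, beside 65.6% of all genes tested, so the share was close to the background. The SD of log2 values was 0.99 in MI4KO against 0.06 in flox mice for Scd1, 0.74 against 0.14 for Fasn, 0.32 against 0.07 for Scd2 and 0.34 against 0.10 for Srebf1. For Acly, Acaca and Elovl5 the SD was no larger in MI4KO mice. MI4KO mouse 4 was highest of all 8 mice for 4 of the 10 genes (Scd1, Scd2, Fasn and Elovl6), and MI4KO mouse 1 was lowest for 4 (Scd1, Fasn, Elovl5 and Thrsp). MI4KO mouse 1, with the lowest Scd1 and Fasn, also had the highest Me1.

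The genes whose log2 values were most like those of Scd1 over the 8 mice were sought among the 11864 other genes tested, as a description without a test. In first place was Adipoq, which encodes the fat cell hormone adiponectin, with Pearson r = 0.989, followed by Pdgfrb at 0.980, Cidec, a lipid droplet gene of fat cells, at 0.975, Cers1 at 0.973 and Scn7a at 0.966. First places about as high arose for other members too, such as Coro6 for Acaca (r = 0.991) and Morf4l1 for Me1 (r = 0.984). These points share their libraries, and MI4KO mice 1 and 3 lie apart from the rest. Without these mice, which are farthest from the median of Adipoq, r between Scd1 and Adipoq was 0.906 over 6 mice. Adipoq was at 5.99, 7.56, 7.05 and 6.70 CPM in flox mice and at 2.18, 6.59, 2.99 and 9.97 CPM in MI4KO mice, so that it was low in the same MI4KO mice as Scd1 and highest in the same mouse. Between Adipoq and Scd2 r was 0.858, between Adipoq and Fasn 0.816 and between Adipoq and Me1 -0.867, and without MI4KO mice 1 and 3 these were 0.656, 0.809 and -0.560. MI4KO mouse 4, highest for Adipoq, remained among those 6 mice. Within the flox mice alone, r with Adipoq was 0.504 for Scd1, 0.077 for Scd2, -0.09 for Fasn and -0.269 for Me1. Within the MI4KO mice it was 0.998, 0.929, 0.883 and -0.994 in the same order. By rank over the 8 mice, Spearman rho with Adipoq was 0.762 for Scd1, 0.714 for Scd2, 0.452 for Fasn and -0.810 for Me1. Scd1 itself had r = 0.868 with Scd2, 0.857 with Fasn and -0.886 with Me1.

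**Figure D4:**
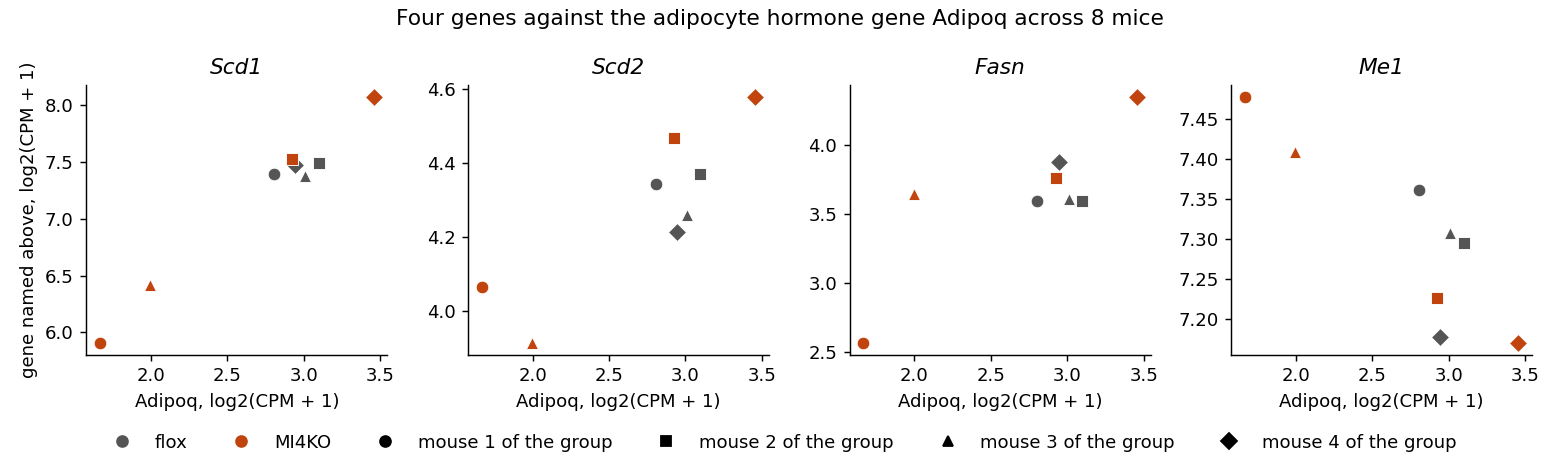
Log2(CPM + 1) of Scd1, Scd2, Fasn and Me1 against that of Adipoq, with 1 symbol per mouse in grey for flox and orange for MI4KO. Scd1 is higher where Adipoq is higher (r = 0.989 over 8 mice, 0.906 without MI4KO mice 1 and 3). The flox mice form a tight group (r = 0.504 for Scd1 within it), and Me1 runs the other way (r = -0.867 over 8 mice).

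Genes most like Scd2 were Sh3tc2 (r = 0.964), Cdk12, Lepr, Serpina3c and Cpne1 (r = 0.935 for the last). Those most like Fasn were Tshz2 (r = 0.975), Tec, Gem, Capg and Svep1 (r = 0.959 for the last). Rhou (r = 0.965), Mlph, Flad1, Syt12 and Mapk1ip1 (r = 0.958 for the last) were most like Srebf1, and Rhou and Syt12 were highest in MI4KO mouse 3, at 138 and 12.03 CPM. None of these sets of 5 held another of the 10 genes.

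Markers of fat cells were examined as a list of 12 genes, none of which was at 0 in every mouse. MI4KO mouse 4 was highest for 5 of the 12 and MI4KO mouse 1 lowest for 8, and Plin1, a lipid droplet coat gene, was at 4.55, 7.56, 4.50 and 5.17 CPM in flox and 1.52, 6.14, 1.26 and 7.92 CPM in MI4KO mice. Adig did not follow this order and was highest in MI4KO mouse 3, at 21.1 CPM. The summed list ranged from 316 to 386 CPM in flox and from 243 to 356 CPM in MI4KO mice (exact two-sided permutation p = 0.257), but Fabp4, which vessel endothelium also expresses, made up 63.0% to 69.8% of it. With the full sum, Scd1 had Pearson r = 0.732 (exact permutation p = 0.0522) and Spearman rho = 0.429 (p = 0.299) over 8 mice, and r was 0.175 without flox mouse 2 and MI4KO mouse 1, the mice farthest from the median. Fasn had Pearson r = 0.778 (exact permutation p = 0.0615) and Spearman rho = 0.238 (p = 0.582), and r = 0.313 without these mice. Elovl5 had Pearson r = 0.766 (exact permutation p = 0.0172) and Spearman rho = 0.595 (p = 0.132), and r = 0.341 without them. These relations rested on those mice, and none of the 30 relations of the 10 genes with adipocyte, hepatocyte and Schwann cell sums passed adjustment (lowest Benjamini-Hochberg value of the exact permutation p = 0.258).

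Without Fabp4 and Lipe, which fibers also express, the list was trimmed after its values were seen and was not tested. Its sum was 42.8, 54.6, 43.7 and 50.1 CPM in flox mice and 22.9, 47.1, 40.0 and 66.4 CPM in MI4KO mice. Over the 8 mice its r was 0.921 with Scd1, 0.948 with Fasn, 0.689 with Scd2 and -0.853 with Me1, and without MI4KO mice 1 and 4 it was 0.682, 0.275, 0.566 and -0.680. The part of fat cells in the Scd1 and Fasn values was not tested further.

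Hepatocyte genes, of which 15 of 15 were highest in flox mouse 1, had r between -0.17 and 0.276 with the 10 genes, and between -0.81 and 0.691 without flox mice 1 and 2, the farthest from the median. Alb, the albumin gene, was at 59.8 CPM in flox mouse 1. Schwann cell genes summed to 63.2 to 91.2 CPM in flox and 57.7 to 75.3 CPM in MI4KO mice (exact permutation p = 0.286). With this sum Scd2 had Pearson r = 0.576 (exact permutation p = 0.131) and Spearman rho = 0.500 (p = 0.216), and r = 0.556 without flox mouse 3 and MI4KO mouse 3. Srebf1 had Pearson r = -0.800 (exact permutation p = 0.0125, 0.258 after adjustment) and Spearman rho = -0.667 (p = 0.0831), and r = -0.222 without these mice, on which the relation therefore rested. Endothelial genes were at 374 to 441 CPM in flox and 285 to 388 CPM in MI4KO mice (exact permutation p = 0.114), and MI4KO mouse 1 was lowest. All 7 endothelial genes had negative log2 fold changes, with a median of -0.21, and 2 of them had an unadjusted p under 0.05 in limma, Kdr at -0.37 (p = 0.0239, exact permutation p = 0.143) and Cdh5 at -0.29 (p = 0.0281, exact permutation p = 0.114). Negative values were also found for all 6 fibroblast genes, all 7 slow fiber genes and 6671 of all 11865 genes tested. Of all genes tested, 3.36% had an unadjusted p under 0.05, with 350 lower and 49 higher in MI4KO mice. Egfl7 had values that did not overlap, at most 34.21 CPM in MI4KO and at least 34.83 CPM in flox mice, with a log2 fold change of -0.15 (exact permutation p = 0.0286). Macrophage genes were at 34.2 to 42.5 and 35.04 to 47.9 CPM (p = 0.429), fibroblast genes at 322 to 423 and 263 to 415 CPM (p = 0.486), and genes of brown fat at 19.6 to 24.8 and 20.7 to 30.3 CPM (p = 0.629), by the same exact test and in the same order of groups. Of the genes that head these lists, Pecam1 of endothelium was at 103 ± 6.16 CPM (SD, n = 4) in flox and 95.02 ± 20.6 (SD, n = 4) in MI4KO mice, and Pdgfra of fibroblasts at 9.86 ± 0.851 and 9.71 ± 1.97 CPM. Adgre1 of macrophages, listed under its older symbol Emr1, was at 0.777 ± 0.0912 and 1.065 ± 0.0833 CPM, with 9 to 18 reads per mouse. Ucp1, the defining gene of brown fat, had no read in any flox mouse and at most 0.0604 CPM in MI4KO mice. Most of the brown fat sum came from Cidea, at 20.57 ± 1.88 CPM (SD, n = 4) in flox and 22.4 ± 3.90 (SD, n = 4) in MI4KO mice. Myh7, the slow myosin gene, was at 13000.0 ± 1530 CPM (SD, n = 4) in flox and 11520.0 ± 499.9 (SD, n = 4) in MI4KO mice, and Myh4, a fast myosin gene, at 1093 ± 1254 and 835 ± 951 CPM. The log2 fold change of Myh4 was 0.57, opposite in sign to the difference of its means. For the summed lists, the exact permutation p was 0.286 for slow fiber, 0.943 for fast fiber, 0.571 for fasting-responsive and 0.914 for glucocorticoid-responsive genes.

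Other genes of the pathway were counted in lists by role. Of 15 genes for precursors, NADPH and acyl carriers, 14 were tested and none had an unadjusted p under 0.05 in limma. Their log2 fold changes ran from -0.40 for Slc25a1, the citrate carrier of mitochondria, to 0.13 for Idh1, a cytosolic source of NADPH, with a median of 0.01. Slc25a1 was at 4.30, 4.37, 4.95 and 4.81 CPM in flox mice and at 2.18, 3.88, 2.26 and 5.50 CPM in MI4KO mice, so MI4KO mice 1 and 3 were lowest, as for Scd1. Of 21 further genes of elongation and desaturation, 17 were tested and none had an unadjusted p under 0.05, with log2 fold changes from -0.20 for Fads1 to 0.21 for Scd3 and a median of -0.07.

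Among 18 regulators, all tested, 1 had an unadjusted p under 0.05, and the median log2 fold change was -0.02. This was Pparg, the nuclear receptor of fat cell formation, at 7.23, 8.12, 6.75 and 7.58 CPM in flox mice and at 4.21, 5.30, 5.65 and 5.44 CPM in MI4KO mice. Every MI4KO mouse was below every flox mouse, with a log2 fold change of -0.46 (standard error 0.11, unadjusted p = 0.00158, adjusted p = 1.0 by limma; exact permutation p = 0.0286, the smallest possible). This fell short of a 1.5-fold change on the log2(value + 1) scale. Mlx, the partner of the glucose-sensing factor ChREBP, also had values that did not overlap, at 12.8 to 14.0 CPM in flox and 11.4 to 12.3 CPM in MI4KO mice, with a log2 fold change of -0.17 (p = 0.0687 by limma, exact permutation p = 0.0286). Mlxipl, the ChREBP gene, was at 73.2 ± 8.68 CPM (SD, n = 4) in flox and 71.6 ± 7.05 CPM (SD, n = 4) in MI4KO mice, and Srebf2 was at 17.2 ± 1.67 and 16.4 ± 2.26 CPM. Lpin1, a phosphatidate phosphatase and coregulator, had the highest log2 fold change of the regulators, 0.38 (p = 0.198 by limma, exact permutation p = 0.543), and was at 547 CPM in MI4KO mouse 3 against 174 to 242 CPM in the other mice. Without that mouse the log2 fold change of Lpin1 was 0.007.

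In cholesterol synthesis, the branch driven by SREBP2, 2 of 19 genes tested had an unadjusted p under 0.05, both lower in MI4KO mice, as were most of all genes under that limit. Lss, lanosterol synthase, was at 2.65 ± 0.561 CPM (SD, n = 4) in flox and 1.74 ± 0.288 (SD, n = 4) in MI4KO mice, with values that did not overlap and a log2 fold change of -0.41 (p = 0.0166 by limma, exact permutation p = 0.0286). Mvd was at 17.7 ± 3.37 and 13.9 ± 0.334 CPM, a log2 fold change of -0.31 (p = 0.0249 by limma, exact permutation p = 0.0857). Of 12 triglyceride synthesis genes tested, 1 had an unadjusted p under 0.05, Acsl5, an acyl-CoA synthetase at 8.80 ± 1.118 CPM (SD, n = 4) in flox and 7.07 ± 0.659 (SD, n = 4) in MI4KO mice (log2 fold change -0.28, p = 0.029 by limma, exact permutation p = 0.0571). Among the 9 fat cell markers tested, Cfd, adipsin, was the 1 gene past the study's limits in limma, at 7.79, 12.6, 9.15 and 9.91 CPM in flox and 2.90, 6.85, 4.72 and 11.7 CPM in MI4KO mice (log2 fold change -0.65, p = 0.0394 and adjusted p = 1.0 by limma, exact permutation p = 0.171). On the recovered reads it was -0.56 by edgeR, which the study used, and -0.57 by DESeq2, short of those limits by both. It was -0.37 without MI4KO mouse 1 and -0.56 without MI4KO mouse 3, short of them in both cases. It passed them without flox mouse 1 (-0.74), MI4KO mouse 2 (-0.71) or MI4KO mouse 4 (-0.94), and with a pseudocount of 0.25. Every other alternative left it short, among them robust estimation and the range of label numbers as a covariate. The MI4KO and flox values of Cfd overlapped, and MI4KO mouse 4 was highest of its group as for Scd1.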

How the data were processed

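SOL RNA-seq of 4 MI4KO and 4 flox mice was analysed, grouped by the labels, each sample being its own mouse. The GAS samples were not analysed here. Libraries were stranded poly(A), read as single reads of 50 bases. The submitters' processing notes name bcl2fastq 2.17, Bowtie2 2.1.0, RSEM 1.2.15 and the build mm10. The authors deposited a signal per gene and mouse, TMM-normalized CPM, beside the fold change, p-value and FDR of their own comparison, which were not used. Whole reads were recovered from the steps of the values (100% whole within 0.01 reads). Read totals and the detection floor rest on these reads, and the floor allows for counting error alone. It does not cover reads split between gene copies or, without molecular identifiers, repeated reads of the same molecule.

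limma 3.58.1 (R 4.3.3) with a mean-variance trend was run on log2(value + 1), on genes that reached a value of 1 in 4 or more mice. Benjamini-Hochberg adjustment covered all 11865 genes tested. Exact permutation tests used scipy 1.17.1. On the recovered reads, edgeR 4.0.16 (quasi-likelihood) and DESeq2 1.42.0 were alternatives, beside pseudocount, filter, scaling, trend, covariate and left-out mice. The tests were tried on simulated data. Gene lengths are from GENCODE M21 and promoters from RefSeq, both on GRCm38.

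Members and lists were chosen with earlier results of these data known. Named were the 10 genes, Irf4, Acacb, from the lists of precursors, elongation and regulators the genes under an unadjusted p of 0.05 or else the lowest and highest of each list, the first marker of each cell type list (1 is not reported here), and the 5 genes most like Scd1, Scd2, Fasn and Srebf1. Ppp1r3c, Lpin1, Mlx, Mlxipl, Srebf2, Plin1, Adig, Cfd, Fabp4, Lipe, Lss, Mvd, Acsl5, Kdr, Cdh5, Egfl7, Cidea, Coro6 and Morf4l1 were named outside this rule, after their values were seen.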

Additional observations from a re-analysis of the deposited data

Results flagged for a closer look

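Of 42 groups of 4 mice examined, made up of the 10 genes and 11 summed lists, 3 held a mouse that lay apart from the others of its group by Dixon's criterion on log2(value + 1), and chance gives about 1 in 20. Fasn was at 13.6 CPM in flox mouse 4, where the gap to the next flox mouse was 0.937 of the group's range. The other three flox mice were at 11.03 to 11.18 CPM. Summed hepatocyte genes were at 175 CPM in flox mouse 1 (gap 0.921), and summed endothelial genes were at 285 CPM in MI4KO mouse 1 (gap 0.889), the mouse that was also lowest for Scd1 and Fasn. On the CPM scale 4 groups held such a mouse, these 3 and summed glucocorticoid-responsive genes at 1160 CPM in MI4KO mouse 3 (gap 0.831). The part of these sums in the values of the 10 genes was not tested.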

How the results depend on the processing

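Labels give each mouse its own number. No paired analysis was possible because MI4KO and flox mice share no numbers. The count of 26 genes past the study's limits (7 higher, 19 lower in MI4KO mice) was 60 with a pseudocount of 0.25, 13 with robust estimation, 65 by edgeR and 51 by DESeq2, and 18 to 57 with 1 mouse left out, the highest without MI4KO mouse 4. With columns scaled to the same total the split was 7 higher and 12 lower. No gene had an adjusted p under 0.05 by limma, edgeR or DESeq2, where 399, 363 and 248 had an unadjusted p under 0.05; with 1 mouse left out the number was 0 to 1, the 1 arising without MI4KO mouse 2.

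Among the 10 genes, Scd1, Srebf1, Elovl5, Elovl6 and Thrsp kept their sign under every alternative that gave a value. Elovl6 had values under 13 of 18 alternatives. It missed the filter wherever flox mouse 2 or MI4KO mouse 2, 3 or 4 was left out, the mice through which it passed. Its kept sign therefore rests on fits that hold all of these mice. Srebf1 ranged from 0.15 to 0.40 on the log2 scale and had an unadjusted p under 0.05 in 10 of 18, as did Thrsp in 3 of 18, Scd1 in 1 of 18 and Elovl6 in 1 of 13. Scd1 was at -0.18 by edgeR and DESeq2. With 1 mouse left out Scd1 ran from -0.82 to -0.10, Scd2 from -0.15 to 0.073, Fasn from -0.34 to 0.25, Acly from -0.156 to 0.049, Acaca from -0.001 to 0.08 and Me1 from -0.017 to 0.084. Scd2 was also positive with columns scaled to the same total (0.002), by edgeR (0.007), by DESeq2 (0.008) and without flox mouse 1 and MI4KO mouse 3 together (0.089). Fasn was positive with the range of label numbers as a covariate (0.044), by edgeR (0.071) and by DESeq2 (0.063). The cause was not tested.

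Group differences of summed lists changed sign for genes of brown fat (-0.372 to 2.82 CPM with 1 mouse left out, -0.005 as a mean of log2 values), fast fibers (-3031 to 2191 CPM, and 0.068), fasting-responsive genes (-21.6 to 473 CPM) and glucocorticoid-responsive genes (-66.0 to 189 CPM). Without the 2 mice farthest from the median, r changed sign for Scd2 (-0.02), Acly (-0.36) and Elovl6 (-0.093) with the adipocyte list, for Acly (0.62), Acaca (-0.14) and Me1 (-0.81) with the hepatocyte list, and for Elovl6 (0.69) and Me1 (0.15) with the Schwann cell list. Dropping Fabp4 and Lipe, chosen after seeing the data, changed no sign.

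With 4 mice a group, the limma 95% interval of Scd1 reaches 0.432-fold and is narrower than the spread of Scd1 alone gives. Low counts limit Elovl6, read 6 to 24 times per mouse, whose log2 fold change of 0.26 was 0.43 with a pseudocount of 0.25 and 0.58 by edgeR and DESeq2, and shared sequence limits Acaca and Me1. Scd1 and Fasn rest on MI4KO mice that lay on both sides of the flox range, and Srebf1 rests in part on MI4KO mouse 3.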
